A study of Homo sapiens with 6 samples.

Results

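The genes examined here were RGS5, the other regulators of G protein signaling (RGS) and the subunits of heterotrimeric G proteins, 42 genes in all. They were taken by symbol from the count table of the series, which holds 60675 gene identifiers. They comprised 17 RGS genes, 12 G alpha genes, 5 G beta genes and 8 G gamma genes. The list was chosen by the vitamin C contrast of these same samples, in which RGS5 had the smallest p-value of all genes, and was filled with its family and partners by name. The changes of these genes are therefore given as a description, without a test. RNA was sequenced from A2058 cells, a line derived from a melanoma metastasis, in 3 control wells and in 3 wells treated with vitamin C at 100 µM for 48 h. A protocol field common to every sample names 50 µM sodium ascorbate instead, and the dose of the treatment label is used here. Both groups were untransfected cultures of the same line, and ribosomal RNA was depleted before library preparation. The wells were cultures of 1 line, so the errors cover the spread between wells.

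A heterotrimeric G protein relays the signal of a seven-helix receptor. The activated receptor makes the G alpha subunit exchange GDP for GTP, and G alpha and the G beta gamma dimer then act on effectors such as adenylyl cyclase and phospholipase C beta. An RGS protein speeds the hydrolysis of GTP on G alpha and so shortens the signal. RGS5 acts on G alpha of the i and q classes, and its transcript is best known as a marker of pericytes, the mural cells of small vessels.

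The protein-coding RGS5 gene (ENSG00000143248) lies on the minus strand of chromosome 1 at chr1:163111121-163321791 (GRCh38). RefSeq gives it a proximal and a distal start, 119 kb apart. Of its 12 transcripts in GENCODE 29, 5 begin within 1 kb of the proximal start and 5 within 1 kb of the distal start. A second identifier (ENSG00000232995) carries the same symbol, lies on the same strand at chr1:163244505-163321894 and shares 534 exon bases with the first. Of its 9 transcripts, 8 begin within 1 kb of the distal start. The windows from 250 bases before to 50 bases after each start are shown because the identifiers differ in the start their transcripts use and in their counts. They are RefSeq sequences of GRCh38.p14, minus strand, written 5′ to 3′ with CG dinucleotides in capitals. The proximal window is chr1:163202867-163203166 and the distal window is chr1:163321686-163321985.
RGS5 proximal start: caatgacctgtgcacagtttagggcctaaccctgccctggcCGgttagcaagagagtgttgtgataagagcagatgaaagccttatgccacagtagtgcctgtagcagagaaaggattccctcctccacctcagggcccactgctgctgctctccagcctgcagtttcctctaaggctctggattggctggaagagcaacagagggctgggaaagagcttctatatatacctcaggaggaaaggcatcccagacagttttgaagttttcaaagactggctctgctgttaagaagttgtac
RGS5 distal start: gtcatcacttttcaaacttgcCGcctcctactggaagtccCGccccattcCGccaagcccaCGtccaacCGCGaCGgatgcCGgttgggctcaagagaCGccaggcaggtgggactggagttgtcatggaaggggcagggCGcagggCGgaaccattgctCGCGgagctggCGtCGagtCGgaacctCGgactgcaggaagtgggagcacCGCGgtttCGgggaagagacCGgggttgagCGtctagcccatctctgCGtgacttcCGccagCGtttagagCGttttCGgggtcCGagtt
The proximal window held 1 CG and had a GC content of 51.0%. Of the 35116 windows in the table, 96.0% held at least as many. The distal window held 28 CG at a GC content of 63.0%, and 26.2% of all windows held as many. The distal window shares 282 bases with the window of NUF2, a kinetochore gene on the opposite strand. Motifs were searched on both strands as the exact strings given below, and neither RGS5 window held any of them. Variants were not searched, such as the stretch tatatata in the proximal window. The TATA motif TATAAA was in 11.5% of all windows. The E-box CACGTG was in 7.26%, and the cAMP response element TGACGTCA was in 1.85%. Of the 42 genes, 36 matched a promoter entry, with 72 windows whose CG counts had a median of 17.5 and ran from 1 to 48. The median over all windows was 14.

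Library totals ran from 16248869 to 41884588 counts in control wells and from 20944956 to 32549362 in vitamin C wells. Levels below are in CPM, the deposited counts scaled to a common library size with TMM factors. All 14 melanoma and melanocyte markers were counted and tested, and their summed level was 4296 to 4503 CPM in control wells and 4148 to 4318 CPM in vitamin C wells. DCT, MCAM and MITF were the highest of them. The sum hid changes of single markers, since 4 of the 14 were called higher and 1 lower, from DCT at a log2 fold change of -0.30 to MLANA at 3.38. Of 12 pericyte and smooth muscle markers 11 had a count, COX4I2 was at 0, and the sum was 318 to 340 CPM in control wells and 324 to 358 CPM in vitamin C wells. Most of that sum was CSPG4, which melanoma cells also express. Endothelial markers, 9 of 10 with a count and CLDN5 at 0, summed to 8.34 to 9.47 CPM and 17.1 to 19.1 CPM, with KDR the highest. Fibroblast markers, 8 of 8 with a count, summed to 56.3 to 64.5 CPM and 92.8 to 109 CPM, mostly LUM, and blood cell markers, 11 of 12 with a count and HBA1 at 0, to 8.60 to 10.2 CPM and 6.40 to 6.63 CPM, mostly LYZ. Of the tested genes of these other lists, 1 of 6 pericyte, 3 of 4 endothelial and 1 of 4 fibroblast markers were called higher and 1 of 2 blood cell markers lower. The part of these marker levels in the results below was not tested.

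Vitamin C wells held 0.337 of the RGS5 transcript level of control wells, while most other members differed little between the groups. Of the 42 genes, 32 passed edgeR's filter on low counts and 10 did not (RGS1, RGS6, RGS7, RGS8, RGS16, GNAO1, GNA14, GNA15, GNG3 and GNG10). At an adjusted p under 0.05 in the fit over all genes, 1 of the 32 was called higher (GNB5) and 2 were called lower (RGS5 and GNAZ), or 9.38%. Over all 16353 genes tested 11.2% were called, 6.09% higher and 5.09% lower, and nothing is read from the comparison. The median log2 fold change of the 32 was -0.02, against -0.00369 over all genes. For 22 of the 32 the log2 fold change was within 0.2 of 0, as it was for 65.4% of all genes tested. The wells of the groups did not overlap for 11 of the 32 (34.4%), 4 higher and 7 lower with vitamin C, against 30.6% of all genes tested (15.6% higher and 14.9% lower). The coefficient of variation between wells of a group had a median of 6.15% over the 32 genes and ran from 2.18% to 20.8%, against a median of 7.53% over all genes.

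**Figure D1:**
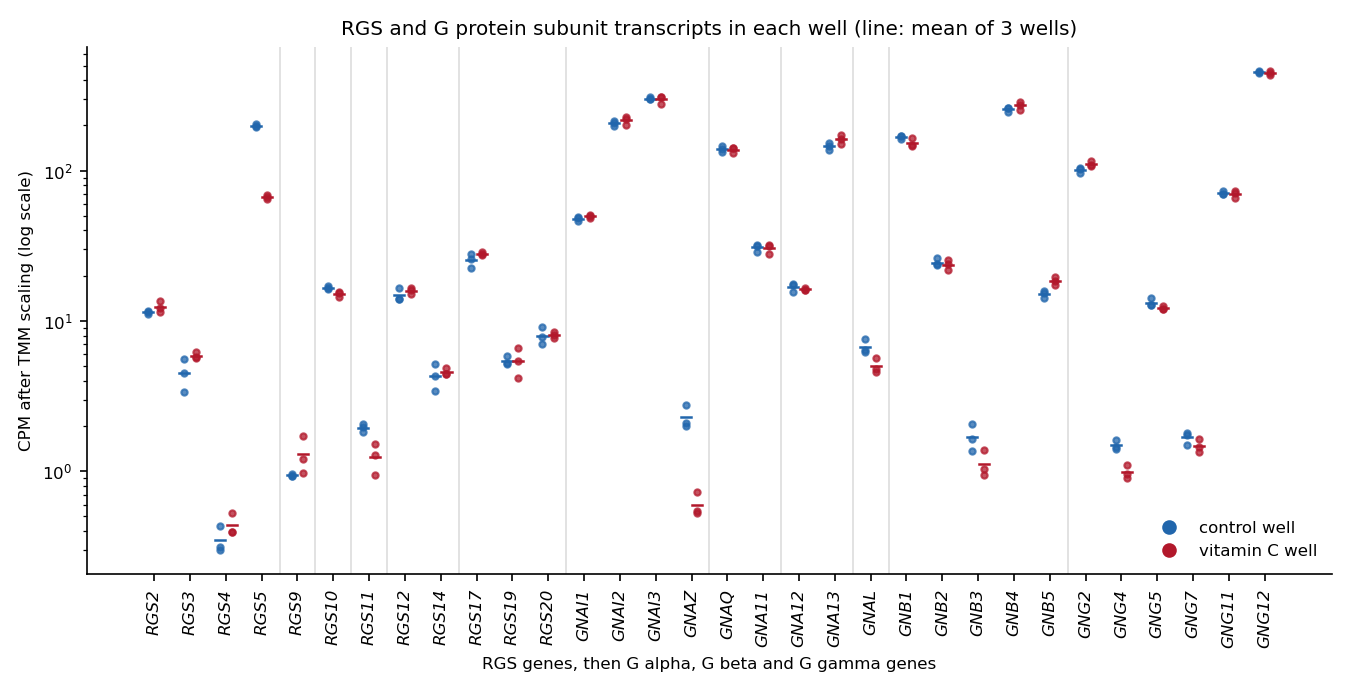
Level of each of the 32 tested genes in each well, in CPM after TMM scaling on a log scale. Blue points are the 3 control wells, red points the 3 vitamin C wells, and lines the means. RGS5 stands near 199 CPM in control wells and 66.9 CPM in vitamin C wells, and GNAZ is the other gene whose groups lie far apart.

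RGS5 was counted 8220, 5227 and 3299 times in control wells 1, 2 and 3 and 1710, 2275 and 1355 times in vitamin C wells 1, 2 and 3. After scaling, control wells held 197, 195 and 204 CPM and vitamin C wells 66.9, 69.1 and 64.7 CPM. The lowest control well lay far above the highest vitamin C well, and the wells of a group lay within a few CPM of each other. The means were 199 ± 4.90 CPM (SD, n = 3) and 66.9 ± 2.23 CPM (SD, n = 3), a log2 fold change of -1.57 with an SE of 0.0483 and a 95% confidence interval of -1.67 to -1.46. This corresponds to a level 2.97-fold higher in control wells. The log2 fold change was at or below that of RGS5 for 27 of the 16353 genes tested. In RNA from a whole well, fewer cells that express a gene and less of its RNA per cell cannot be told apart.

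The second RGS5 identifier was not called. It was counted 141, 85 and 54 times in control wells and 66, 108 and 55 times in vitamin C wells, which are 3.39, 3.16 and 3.34 CPM and 2.58, 3.28 and 2.63 CPM. The groups overlapped, and the log2 fold change was -0.21 with a 95% confidence interval of -0.56 to 0.14. The ratio of the protein-coding identifier to the second identifier, in CPM, was 58.3, 61.5 and 61.1 in control wells and 25.9, 21.1 and 24.6 in vitamin C wells. Every vitamin C ratio lay below every control ratio. The numerator is the gene whose small p-value led to the choice of the list, so nothing is read from this separation. Both identifiers share exon bases, and the sources used here do not state how the authors' counting treated reads of shared bases. The split of the reads between the identifiers is therefore uncertain, and which start the RGS5 reads came from was not tested.

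The genes around RGS5 were compared because the neighbour RGS4 is a close relative and the window of NUF2 overlaps the distal window. NUF2, on the opposite strand, had a level of 144 CPM in control wells and 143 CPM in vitamin C wells, a log2 fold change of -0.02 with a 95% confidence interval of -0.14 to 0.10. RGS4, which acts on the same G alpha classes as RGS5, had 28 counts in all in control wells and 34 in vitamin C wells. At those counts the interval of its log2 fold change ran from -0.46 to 1.18, which includes 0 and lies above the value of RGS5. A difference within that interval could not be told from 0. AL499616.1, an antisense transcript inside the RGS5 body, had 33 and 29 counts. Of the other tested genes within 500 kb, DDR2, a collagen receptor kinase, rose from 385 ± 1.51 to 467 ± 1.54 CPM (SD, n = 3), with a log2 fold change of 0.28, an SE of 0.0396 and an adjusted p of 0.00051 in edgeR's quasi-likelihood test. HSD17B7, a sterol synthesis enzyme, had a log2 fold change of -0.02 with a 95% confidence interval of -0.20 to 0.16. RGS5 was the sole gene called lower among the 7 identifiers tested in this interval.

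**Figure D2:**
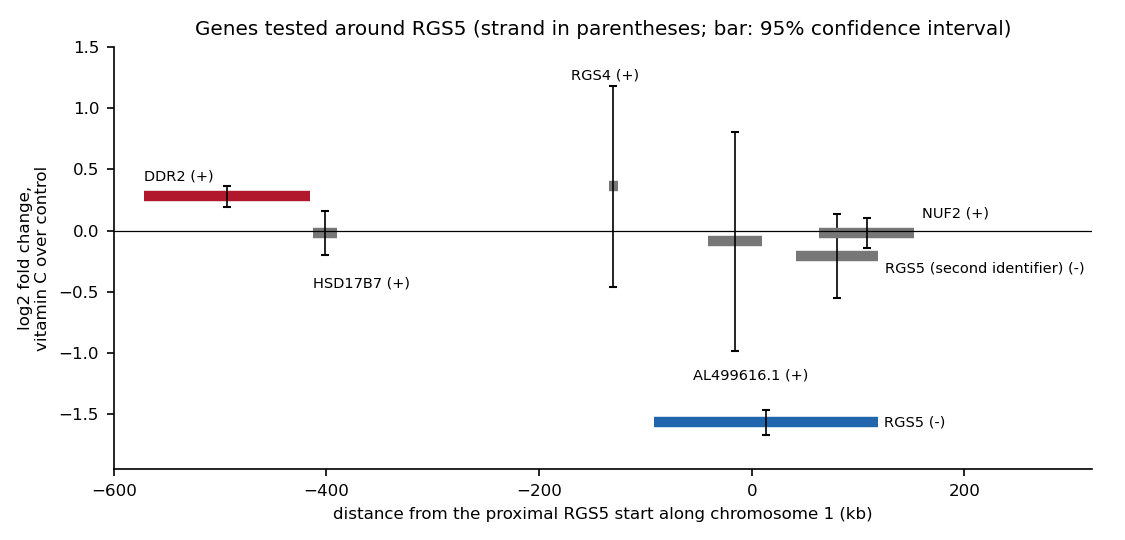
Log2 fold change, vitamin C over control, of the identifiers tested within 500 kb of RGS5, against distance in kb from the proximal RGS5 start. Thick bars are gene bodies (red called higher, blue called lower, grey not called), thin bars 95% confidence intervals, and signs the strand. RGS5 lies at -1.57, while NUF2 and the second RGS5 identifier, which overlap it, lie at -0.02 and -0.21.

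The R4 family of small RGS proteins, to which RGS5 belongs, has 7 genes here, 6 of them on chromosome 1. RGS2, which acts mainly on G alpha q, was at 11.7, 11.4 and 11.1 CPM in control wells and 13.5, 12.2 and 11.5 CPM in vitamin C wells. The groups overlapped, with a log2 fold change of 0.12 and a 95% confidence interval of -0.07 to 0.31. RGS3, which acts on G alpha i and q, was at 4.54, 3.35 and 5.57 CPM in control wells and 6.22, 5.74 and 5.63 CPM in vitamin C wells. Its groups did not overlap, but the gap between the nearest wells was smaller than the spread of the control wells, and its log2 fold change of 0.41 (95% confidence interval 0.07 to 0.76) was not called. RGS1, known from B lymphocytes, was counted 9, 4 and 4 times in control wells and 9, 14 and 15 times in vitamin C wells. RGS8 and RGS16 had at most 5 counts in any well. Of the R4 genes other than RGS5, RGS1, RGS2, RGS3 and RGS4 had no lower mean with vitamin C, and the intervals of RGS2, RGS3 and RGS4 lay above the log2 fold change of RGS5.

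The R7 family proteins RGS6, RGS7, RGS9 and RGS11 carry a domain that binds GNB5, and they act on G alpha i and o. RGS11 was at 1.82, 2.05 and 1.98 CPM in control wells and 0.939, 1.28 and 1.53 CPM in vitamin C wells. Every vitamin C well lay below every control well, with a log2 fold change of -0.65 (95% confidence interval -1.14 to -0.15) that was not called. Without vitamin C replicate 3 it was -0.78 and was called, as it was by edgeR's likelihood ratio test. The fit without that replicate called 1184 genes higher and 911 lower over all genes, against 996 and 833 with all wells. Of the exon bases of RGS11, 12.1% overlap ARHGDIG on the opposite strand, which had 17 counts in control wells and 7 in vitamin C wells. RGS9, known from photoreceptors and striatal neurons, was at 0.960, 0.931 and 0.928 CPM in control wells and 1.21, 0.973 and 1.72 CPM in vitamin C wells. All 3 vitamin C wells were higher, but the log2 fold change of 0.43 had an interval of -0.17 to 1.04. RGS6 had 6, 0 and 0 counts in control wells and 0, 3 and 8 in vitamin C wells, and RGS7 at most 5 in any well. 

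The remaining RGS genes belong to the R12 and RZ families. RGS10, a small protein that acts on G alpha i and is known from immune cells and microglia, was at 16.2, 17.1 and 16.6 CPM in control wells and 15.7, 15.3 and 14.4 CPM in vitamin C wells. The groups did not overlap, but the interval of the log2 fold change, -0.30 to 0.03, included 0. The scaffold proteins RGS12 and RGS14, which also bind Ras-like GTPases, had log2 fold changes of 0.11 and 0.08 with overlapping groups. Of the RZ family, which acts on G alpha z among others, RGS17 was at 22.6, 25.7 and 27.8 CPM in control wells and 27.7, 28.6 and 27.6 CPM in vitamin C wells. RGS19 and RGS20 were at 5.42 ± 0.389 and 7.99 ± 1.08 CPM in control wells and 5.38 ± 1.22 and 8.08 ± 0.37 CPM in vitamin C wells (SD, n = 3). The groups of all 3 RZ genes overlapped, with log2 fold changes of 0.15, -0.00021 and 0.03.

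**Figure D3:**
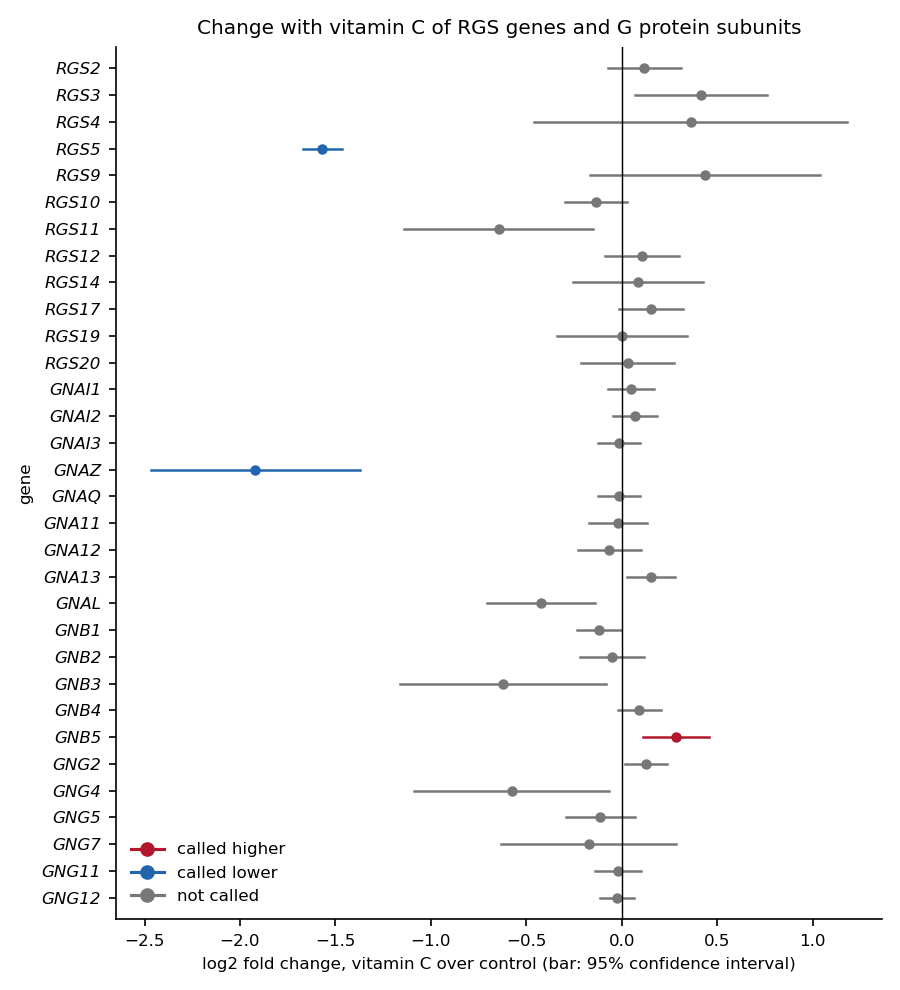
Log2 fold change, vitamin C over control, of the 32 tested genes with 95% confidence intervals, RGS genes above G alpha, G beta and G gamma genes. RGS5 (-1.57) and GNAZ (-1.92) are in blue and GNB5 (0.28) in red. The wide intervals belong to genes at low counts, such as RGS4.

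To compare genes with each other, levels were divided by the length of the longest principal transcript (CPM per kb). On this scale RGS5 was the highest RGS gene in control wells, at 33.9 ± 0.84 CPM per kb (SD, n = 3), above RGS10 at 20.7 ± 0.53 and RGS2 at 8.43 ± 0.24. In vitamin C wells RGS5 stood at 11.4 ± 0.38 CPM per kb, below RGS10 at 18.8 ± 0.80 and above RGS2 at 9.16 ± 0.75. The order of RGS5 and RGS10 in vitamin C wells was the same over the union of all exons, at 9.81 and 12.1 CPM per kb. RGS20, RGS19, RGS17 and RGS12 followed in control wells, between 3.80 and 2.71 CPM per kb, and the SDs of neighbours in that order overlapped.

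The levels of all 17 RGS genes summed to 80.6 ± 1.29 CPM per kb in control wells and 58.1 ± 1.86 in vitamin C wells (SD, n = 3). Without RGS5 the sums were 46.7 ± 0.48 and 46.6 ± 1.52 CPM per kb. The difference between the groups was thus no larger than the spread between wells once RGS5 was left out. RGS5 made up 42.1% of the sum in control wells and 19.7% in vitamin C wells. The share of RGS10 was 25.7% and 32.4%, and that of RGS2 10.5% and 15.8%. The mean levels behind these shares were 20.7 and 18.8 CPM per kb for RGS10 and 8.43 and 9.16 for RGS2. Over the union of all exons the share of RGS5 was 48.9% and 24.5%.

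**Figure D4:**
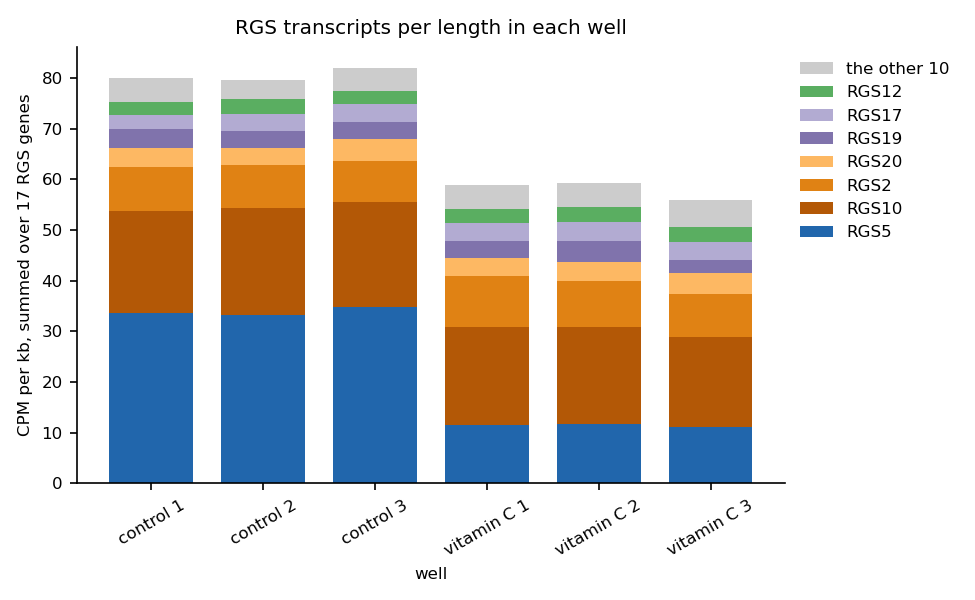
CPM per kb summed over the 17 RGS genes in each well, split by gene. The RGS5 segment is 33.9 CPM per kb on average in control wells and 11.4 in vitamin C wells, while the segments above it have a similar height in all 6 wells.

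Among G alpha genes of the inhibitory class, GNAZ stood apart. It encodes G alpha z, which inhibits adenylyl cyclase, resists pertussis toxin and is known from neurons and platelets. GNAZ (ENSG00000128266, chr22:23070361-23125037, plus strand) was counted 115, 54 and 34 times in control wells and 14, 24 and 11 times in vitamin C wells, or 2.76, 2.01 and 2.10 CPM and 0.548, 0.729 and 0.525 CPM. Every vitamin C well lay far below the lowest control well. The log2 fold change was -1.92 with an SE of 0.254 and a 95% confidence interval of -2.47 to -1.37, and it was at or below this value for 9 of the 16353 genes tested. Of the GNAZ exon bases 7.14% overlap RSPH14 on the opposite strand, which had at most 1 count in any well. On the scale per length GNAZ was a minor G alpha transcript in both groups, at 0.688 CPM per kb in control wells and 0.180 in vitamin C wells.

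The major inhibitory subunits were near their control level. GNAI2 was at 198, 207 and 213 CPM in control wells and 219, 201 and 228 CPM in vitamin C wells. GNAI1 was at 48.0 ± 1.28 CPM in control wells and 49.6 ± 1.09 CPM in vitamin C wells (SD, n = 3). GNAI3 was at 299, 308 and 298 CPM in control wells and 310, 308 and 276 CPM in vitamin C wells. The groups overlapped for these 3 genes, and their intervals together ran from -0.12 to 0.18 on the log2 scale. GNAO1, the subunit of neurons, had at most 9 counts in any well. On the scale per length GNAI2 was the highest G alpha gene, at 83.6 CPM per kb in control wells, and made up 50.6% of the G alpha sum there and 51.3% in vitamin C wells. Over the union of all exons its share was 27.3% and 27.7%, below that of GNA13 at 28.8% and 31.0%, with overlapping wells, so the order of the pair depended on the length used. GNAI3 reached 11.1 CPM per kb, its principal transcript being annotated at 27174 bases.

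GNAQ and GNA11, which activate phospholipase C beta and are often mutated in uveal melanoma, differed little between groups. GNAQ was at 139, 146 and 134 CPM in control wells and 141, 141 and 131 CPM in vitamin C wells. Their log2 fold changes were -0.02 and -0.02, with intervals of -0.13 to 0.09 and -0.17 to 0.13. GNA14, of the same class, was counted 13, 4 and 7 times in control wells and 3, 0 and 0 times in vitamin C wells. It was below the filter, and without the filter it was called lower. GNA15, of blood cells, had at most 2 counts. GNA12 and GNA13, which form a class of their own, had log2 fold changes of -0.07 and 0.15 with overlapping groups. GNA13 was at 152, 147 and 137 CPM in control wells and 173, 162 and 149 CPM in vitamin C wells, was not called, and without vitamin C replicate 3 had a log2 fold change of 0.21 and was called. GNAL, which encodes the olfactory subunit that stimulates adenylyl cyclase, was at 7.54, 6.22 and 6.37 CPM in control wells and 4.54, 5.68 and 4.82 CPM in vitamin C wells. Its groups did not overlap, with a log2 fold change of -0.43 (95% confidence interval -0.71 to -0.14), and it was not called, although edgeR's exact and likelihood ratio tests called it. Of its exon bases 26.8% overlap MPPE1 on the opposite strand, which had a higher level than GNAL, so its counts are uncertain.

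GNB5 was the sole member called higher. It encodes the divergent G beta subunit that pairs with R7 RGS proteins. GNB5 was at 15.8, 15.3 and 14.1 CPM in control wells and 17.3, 18.5 and 19.7 CPM in vitamin C wells. The groups did not overlap, and the log2 fold change was 0.28 with a 95% confidence interval of 0.11 to 0.46. The call was lost in fits without control replicate 1, 2 or 3 (0.32, 0.29 and 0.25) and in those without vitamin C replicate 2 or 3 (0.28 and 0.24), and also with upper quartile scaling (0.27) and DESeq2 (0.29). Its partners are described above, with RGS9 and RGS11 not called and RGS6 and RGS7 below the filter.

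GNB1 and GNB4, the main G beta transcripts, made up 49.0% and 36.6% of the G beta sum per length in control wells and 45.8% and 39.7% in vitamin C wells. GNB1 was at 162, 170 and 169 CPM in control wells and 166, 149 and 146 CPM in vitamin C wells. Its groups overlapped through vitamin C replicate 1, without which the log2 fold change moved from -0.12 to -0.18 and was called. GNB4 was at 244, 260 and 262 CPM in control wells and 288, 273 and 255 CPM in vitamin C wells, and its log2 fold change of 0.09 became 0.14 and was called without vitamin C replicate 3. Over the union of exons GNB4 was higher than GNB1, at 36.3 against 26.0 CPM per kb in control wells, so their order depended on the length used. GNB2 had a log2 fold change of -0.05. GNB3, known from cone photoreceptors, was at 1.63, 2.05 and 1.36 CPM in control wells and 0.939, 1.03 and 1.38 CPM in vitamin C wells, with overlapping groups, and 16.0% of its exon bases overlap CDCA3 on the opposite strand.

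The G gamma subunits anchor the beta gamma dimer to the membrane through a lipid group. GNG12, the highest member on the scale per length, was at 460, 453 and 447 CPM in control wells and 457, 448 and 432 CPM in vitamin C wells. The groups overlapped, its log2 fold change of -0.03 had a 95% confidence interval of -0.12 to 0.06, and it made up 61.2% and 60.5% of the G gamma sum. GNG2 was at 102, 104 and 97.2 CPM in control wells and 115, 109 and 107 CPM in vitamin C wells, without overlap. Its log2 fold change of 0.13 was not called with all wells, and without vitamin C replicate 3 it was 0.15 and was called. GNG4 was at 1.42, 1.45 and 1.61 CPM in control wells and 0.900, 1.09 and 0.955 CPM in vitamin C wells, again without overlap, and its log2 fold change of -0.58 was not called. GNG5, GNG7 and GNG11 had log2 fold changes of -0.11, -0.17 and -0.02, and 30.9% of the GNG5 exon bases belong also to AL359762.3 on the same strand. GNG3 had at most 2 counts in any well. GNG10 had at most 1, but 73.1% of its exon bases are shared with the read-through gene DNAJC25-GNG10, at 0 counts in every well, so its count is uncertain.

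The sums per length of the subunit classes stayed level between groups. G alpha genes summed to 165 ± 1.79 CPM per kb in control wells and 171 ± 4.75 in vitamin C wells (SD, n = 3). G beta genes summed to 108 ± 2.19 and 106 ± 4.59, and G gamma genes to 168 ± 2.01 and 167 ± 5.57. The ranges of the wells overlapped in each class. The ratios of the vitamin C to the control mean were 1.03, 0.981 and 0.995.

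Other genes of the pathway, which act before or after the members, were taken from 12 lists of 255 symbols. Of these, 138 genes were tested, 11 rose and 17 fell at an adjusted p under 0.05 in edgeR's quasi-likelihood test. These are 20.3%, against 11.2% of all genes and 13.4% of protein-coding genes tested. The lists were chosen with earlier results of these data known, so nothing is read from the comparison. The median log2 fold change of the 138 genes was -0.05. The count of falling genes dropped to between 9 and 10 without any 1 of the control wells or without vitamin C replicate 2.

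In the lists of adenylyl cyclases, cAMP effectors, phosphodiesterases and other G protein subunits, all called genes but PDE4C fell. These lists are grouped here for description only, and nothing is read from the shared direction. RIC8B, a chaperone for the stimulatory class in another list, rose and is described below. Over all genes tested, 6.09% were called higher and 5.09% lower. Of 5 adenylyl cyclases tested, ADCY1, an enzyme stimulated by calcium and calmodulin, fell from 126 ± 7.97 to 91.1 ± 6.81 CPM (SD, n = 3), with a log2 fold change of -0.46 and an adjusted p of 0.00040 by edgeR's quasi-likelihood test. GNAS, the stimulatory G alpha subunit that feeds it and the 1 tested gene of its list, fell from 170 ± 5.21 to 136 ± 4.41 CPM, with a log2 fold change of -0.31 and an adjusted p of 0.00077 in the same test. Of 17 cAMP effectors, RAPGEF4, a cAMP-activated exchange factor for Rap, fell by 1.01 on the log2 scale and PRKAR2B, a regulatory subunit of protein kinase A, by 0.18. The call of PRKAR2B was lost in fits that left out control replicate 1, 2 or 3 or that left out vitamin C replicate 2, at log2 fold changes between -0.20 and -0.16. Of 18 phosphodiesterases, which degrade cyclic nucleotides, 4 fell and 1 rose. PDE3B fell by 0.65, PDE7B by 0.25 and PDE8A by 0.23 on the log2 scale, the last 2 not being called without control replicate 2 (PDE7B, -0.21) or control replicate 1 (PDE8A, -0.20). PDE8B fell by 0.27 and was not called when any 1 of the 6 wells was left out, at log2 fold changes between -0.30 and -0.24. PDE4C, at 0.384, 0.335 and 0.619 CPM in control wells and 0.978, 1.58 and 1.29 CPM in vitamin C wells, rose by 1.61 on the log2 scale and was not called without vitamin C replicate 2 (1.41).

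In the lists of phospholipase C beta signaling, of G beta gamma effectors and of receptor kinases and arrestins, 1 gene each passed the test. Of 13 genes of phospholipase C beta signaling, PLCB1, the effector of G alpha q, fell from 33.4 ± 1.05 to 21.6 ± 0.15 CPM (SD, n = 3), with a log2 fold change of -0.63 and an adjusted p of 3.1e-05 by edgeR's quasi-likelihood test. Of 4 tested G beta gamma effectors, PIK3CG, the catalytic subunit of phosphoinositide 3-kinase gamma, rose from 98.9 ± 1.63 to 129 ± 2.40 CPM, with a log2 fold change of 0.39 and an adjusted p of 0.00012 in that test. Of 11 receptor kinases and arrestins, which switch receptors off, ARRDC4, an arrestin-domain protein, fell by 0.45 and was not called when control replicate 1 or 3 was left out, or vitamin C replicate 2 (-0.47, -0.39 and -0.41).

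Of 11 tested modulators of G alpha outside the RGS family, 2 rose and 1 fell. Among them, RIC8B, a chaperone and exchange factor for the stimulatory class, rose by 0.35 on the log2 scale with an adjusted p of 0.0053 by edgeR's quasi-likelihood test. RAP1GAP, which stimulates GTP hydrolysis on Rap and binds G alpha z, rose by 0.60 (adjusted p = 0.011 in edgeR). RAP1GAP2 fell by 0.21 and was not called when any 1 of the 6 wells was left out, at log2 fold changes between -0.25 and -0.17. Of 8 other RGS-domain proteins and RGS partners tested, edgeR's quasi-likelihood test called 0, DESeq2 called 0, and 1 had an unadjusted p under 0.05.

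Receptors changed in both directions. Of 20 tested receptors for peptides, lipids and proteases, 4 rose and 1 fell. F2RL2, a protease-activated receptor, rose by 0.71 on the log2 scale, GPR143, a receptor of melanosomes, by 1.23, GPRC5C, an orphan receptor, by 1.25, and EDNRB, the endothelin receptor of melanocytes, by 0.20. The call of EDNRB was lost without control replicate 3 (0.18). The orphan receptor GPRC5B fell by 0.20, a call that was lost without any 1 of the wells but vitamin C replicate 3 (-0.22 to -0.18). Of 15 tested receptors for amines, purines, glutamate and GABA, 3 rose and 3 fell. GABBR2, a subunit of the GABA B receptor, fell from 11.8 ± 0.795 to 4.46 ± 0.28 CPM (SD, n = 3), without overlap between wells. The level in control wells was 2.64-fold higher, with an SE of 0.107 on the log2 scale and an adjusted p of 3.5e-06 by edgeR's quasi-likelihood test. ADRA2A, the alpha 2A adrenergic receptor, was at 0.791 ± 0.31 CPM in control wells and 0.316 ± 0.13 CPM in vitamin C wells (SD, n = 3) and fell by 1.44 on the log2 scale. It was not called when control replicate 1 or 2 was left out, or vitamin C replicate 2 (-1.22, -1.35 and -1.10). HRH1, the histamine H1 receptor, rose by 0.50, and HTR2B, a serotonin receptor, by 0.47. HTR2B was not called when control replicate 2 or 3 was left out, or vitamin C replicate 2 (0.37, 0.49 and 0.48). The adenosine receptor ADORA2B rose by 0.39 and the nucleotide receptor P2RY1 fell by 0.27. ADORA2B was not called when control replicate 1 or 3 was left out, or vitamin C replicate 2 (0.40, 0.35 and 0.35), nor P2RY1 when control replicate 2 or 3 was left out, or vitamin C replicate 1 (-0.22, -0.28 and -0.24). Of 15 adhesion receptors, ADGRL1, a latrophilin, fell by 0.57 and ADGRA3 by 0.19, the latter not being called when control replicate 1 or 3 was left out, or vitamin C replicate 1 or 2 (-0.21 to -0.17).

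**Figure D5:**
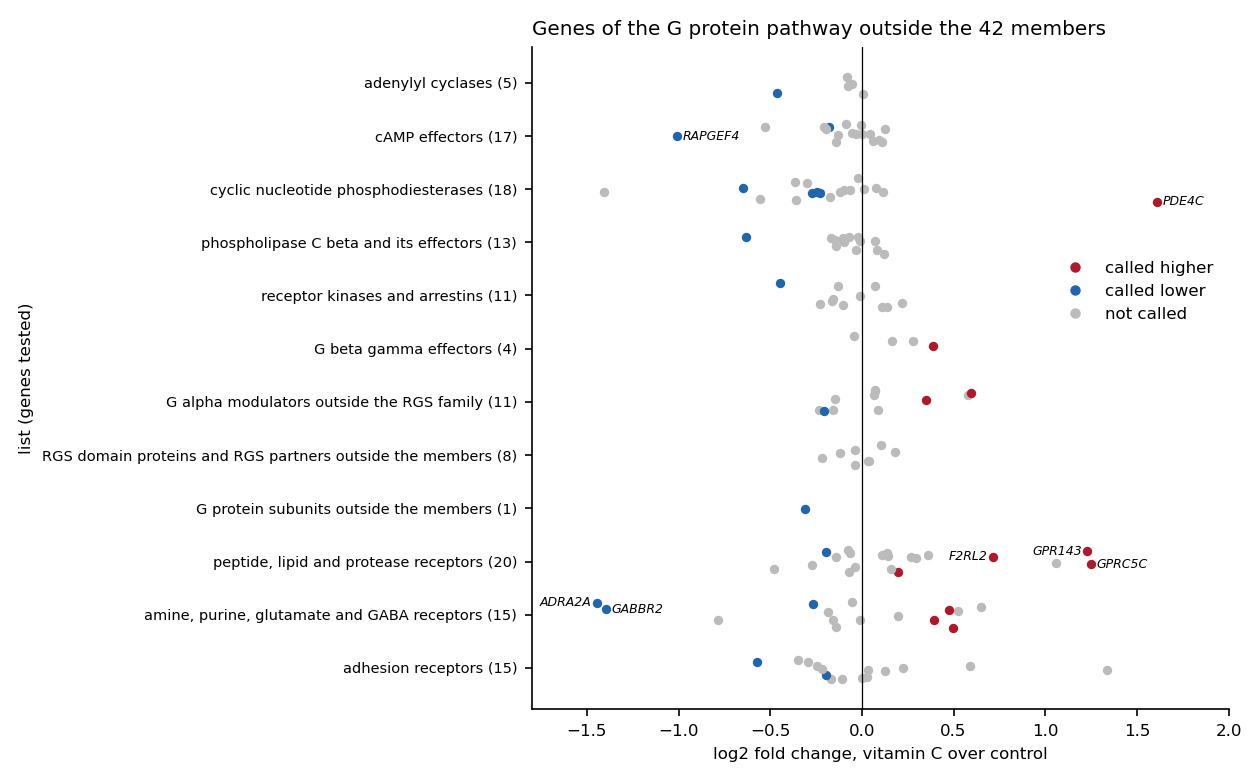
Log2 fold change, vitamin C over control, of the 138 tested pathway genes outside the members, 1 point per gene, by list. Red and blue points were called higher and lower, and grey points were not called, with called genes beyond 0.7 named. Called points of the adenylyl cyclase, cAMP effector, phosphodiesterase and other G protein subunit lists lie below 0 except PDE4C at 1.61. Called receptors lie on both sides, from ADRA2A at -1.44 to GPRC5C at 1.25. PDE4C and ADRA2A are genes at low counts.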

How the data were processed

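Ribosome-depleted RNA of A2058 cells was sequenced from 3 control and 3 vitamin C wells. The values deposited by the authors are unnormalized counts per gene, made from paired-end reads with STAR and HTSeq. The annotation given in the paper is GENCODE v19. The processing notes of the submitters list CASAVA 1.4, Trim Galore and STAR, with hg38 as the build. The sources used here do not state whether strand was used in counting. Symbols, lengths and coordinates were taken from GENCODE 29, which holds 57055 of the 60675 identifiers.

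The members and the lists of genes were chosen with earlier results of these data known. In R 4.3.3, edgeR 4.0.16 filtered genes on expression (16353 kept), scaled libraries by TMM and applied the quasi-likelihood test to all genes, with Benjamini-Hochberg adjustment and calls at an adjusted p under 0.05. The procedure was tested on simulated data. CPM were computed here from the deposited counts. Genes named are every member, up to 4 called genes with the smallest p of each pathway list, the tested genes within 500 kb of RGS5 and the highest genes of each marker list. ADRA2A, HTR2B, GPRC5B, PDE8B and MLANA were named after their values were seen. The result of 1 further pathway list is not reported here. Alternatives were other scalings, filters and thresholds, other tests (DESeq2 1.42.0, limma-voom in limma 3.58.1, edgeR's exact and likelihood ratio tests), a replicate block, fits without each library and, chosen after seeing the data, another transcript length.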

Additional observations from a re-analysis of the deposited data

How the results depend on the processing

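RGS5 and GNAZ kept their direction and their call in each of the 16 alternatives run on single genes, at log2 fold changes of -1.59 to -1.54 and -2.10 to -1.74. GNB5 stayed higher in all 16 and was called in 8. It was not called with upper quartile scaling or DESeq2, which left 0 members called higher, as did an adjusted p under 0.01. The likelihood ratio test and an adjusted p under 0.1 each called 4 members lower. With 1 library left out, 0 to 3 members were called higher (0 when any control replicate or vitamin C replicate 2 was left out, and 3 without vitamin C replicate 3) and 2 to 3 lower. Over all genes, 549 to 1184 were then called higher and 411 to 911 lower, against 996 and 833, and 9 to 18 pathway genes were called lower, against 17. The highest of these counts over all genes came without vitamin C replicate 3, the fit that also called RGS11, GNA13, GNB4 and GNG2. An adjusted p under 0.01 gave 473 higher and 322 lower over all genes and 8 pathway genes lower, and an adjusted p under 0.1 gave 1331 lower. Without the filter 3 members were called lower, GNA14 being added, while PRKAR2B, RAP1GAP2 and ADGRA3 were not called, nor was RAP1GAP2 with library size scaling, DESeq2 or limma-voom. No named gene reversed. Of 32 called genes among the members, the neighbours of RGS5 and the pathway genes named, 17 kept their call in every alternative.

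The labels number the replicates in both groups, but same-numbered wells did not deviate together (correlations of 0.123, -0.0237 and 0.0915), and not every well correlated best with its own number. With the replicate number as a block, 1020 genes were called higher and 893 lower, and 1 member higher and 2 lower. GNB5 was then not called and GNA13 was. Low counts limited what could be read from RGS4 and the members below the filter.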
